A study of Mus musculus with 27 samples.

Results

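The comparison described here is that of the livers of CCl4-treated mice given lipid nanoparticles (LNP) with an siRNA against Has2 (CCl4 + siHAS2-LNP, n = 4) with the livers of CCl4-treated mice given the same particles with an siRNA against luciferase (CCl4 + siLuc-LNP, n = 4). Its members were the 8 count columns of those groups, of 27 libraries in all, and the 14114 of 55414 annotated genes whose mean count over all 27 columns was at least 10. The mice were 8-week-old female Balb/c. Every mouse of both groups received CCl4, a hepatotoxin that is activated in pericentral hepatocytes, by intraperitoneal injection for 2 weeks, and every one received LNPs through the tail vein, at 1 mg/kg of siRNA for the first dose and 0.5 mg/kg for the later ones. Luciferase is not a mouse gene, so the siLuc group carried the particle, the RNA cargo and the injections without a mouse target. The remaining libraries were controls (n = 4), CCl4 alone (n = 2), 4MU (4-methylumbelliferone, an inhibitor of hyaluronan synthesis) alone (n = 3) and with CCl4 (n = 4), and each LNP without CCl4 (n = 3 each). Whole liver was sequenced, so fewer cells of a type and less RNA per cell cannot be told apart.

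Hyaluronan is a long unbranched sugar polymer that membrane synthases spin out into the matrix. Of the synthases, Has2 is the one that hepatic stellate cells switch on when they turn into collagen-secreting myofibroblasts. The polymer binds Cd44 and Hmmr on stellate cells and leukocytes, and hyaluronidases such as Hyal1 and Hyal2 break it down. An siRNA acts through its guide strand, which pairs with the target messenger and directs its cleavage; guide bases 2 to 8, the seed, can also pair with the 3′ ends of other messengers. The strands of the Has2 siRNA used in the animals and the stretch of Has2 they match are shown because they define the perturbation. Capitals mark the seed and its complement, and the terminal deoxythymidines are left out.
guide strand: aUUGCAAAcauuuccgua
passenger strand: uuacggaaauguuugcaa
Has2 target: ttacggaaatgTTTGCAAt
The target lies in exon 2 of Has2, within the coding sequence, at chr15:56545288-56545306 on the minus strand of GRCm39. The guide's full 18-base complement was found in 0 annotated transcripts of other genes.

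Has2 itself could not be assessed at this depth. It had 0, 0, 0 and 0 counts in CCl4 + siHAS2-LNP mice 1 to 4 and 0, 0, 0 and 1 counts in CCl4 + siLuc-LNP mice 1 to 4, where a count of 0 allows up to 3 counts. The other synthases were also scarce, with 1, 0, 0 and 8 counts of Has1 and 3, 4, 6 and 1 counts of Has3 in the siHAS2 libraries against 1, 3, 0 and 6 and 1, 3, 5 and 1 in the siLuc libraries, and none of these genes entered the test. Cemip, a hyaluronan-depolymerising protein, had 1, 1, 1 and 2 against 0, 5, 2 and 15 counts. Intervals and limits of this kind cover counting error only. So the messenger that the siRNA targets gives no check of the group labels in these libraries.

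The other hyaluronan genes gave 0 calls in edgeR's quasi-likelihood test. This test, with Benjamini-Hochberg adjustment over all 14114 genes and a threshold of 0.05, is the source of every adjusted p given here, and levels are in counts scaled to library size (CPM). Of 23 listed genes for hyaluronan synthesis, breakdown and binding, 18 were tested, 5 had an unadjusted p under 0.05 (4 of them lower), DESeq2 called 1 and limma-voom 0. Cd44, the main hyaluronan receptor, stood at 13.6, 18.4, 14.7 and 14.5 CPM in CCl4 + siHAS2-LNP mice 1 to 4 and at 32.4, 16.5, 15.1 and 28.1 CPM in CCl4 + siLuc-LNP mice 1 to 4. The groups overlapped, with siLuc mice 1 and 4 far above the rest, and the log2 change was -0.59 (SE 0.24, adjusted p = 0.2). Hmmr, which also acts at the mitotic spindle, had its 4 siHAS2 values below its 4 siLuc values but did not pass (log2 change -0.87, SE 0.35, adjusted p = 0.206). Hyal1, a lysosomal hyaluronidase, had a log2 change of 0.53 (SE 0.17, adjusted p = 0.114), Hyal2 one of -0.095 (SE 0.16, adjusted p = 0.836) and the cell-surface hyaluronidase Cemip2 one of -0.81 (SE 0.25, adjusted p = 0.104). Hrg, a histidine-rich plasma glycoprotein made by hepatocytes, overlapped between groups (log2 change 0.013, SE 0.25, adjusted p = 0.99).

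Some of the 8 libraries stood apart before any gene was compared. Total counts ran from 18278395 to 25641808 in 7 of them, while CCl4 + siHAS2-LNP mouse 4 had 7044386. In CCl4 + siLuc-LNP mouse 3, 15.6% of counts fell on ribosomal RNA genes, against 0.282% to 0.963% in the other 7. Mitochondrial messenger RNAs took 7.48% of the counts of CCl4 + siHAS2-LNP mouse 3 and 2.86% to 4.75% in the rest. Long noncoding RNAs (lncRNAs) took 0.459%, 0.597%, 0.881% and 0.627% of counts in CCl4 + siHAS2-LNP mice 1 to 4 and 0.471%, 0.339%, 0.413% and 0.437% in CCl4 + siLuc-LNP mice 1 to 4, so the lncRNA share overlapped between groups only through siHAS2 mouse 1 and siLuc mouse 1.

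Across all genes, 111 (0.786%) were higher and 43 (0.305%) lower in CCl4 + siHAS2-LNP than in CCl4 + siLuc-LNP. Among the lower genes were the lectin Lgals1, the filament gene Vim, the matrix genes Tnc, Lum and Pcolce and the receptor Tgfbr2; among the higher ones were the lncRNAs AI480526 and Firre, the collagen Col5a3 and the antiviral gene Shfl. The median log2 change over all genes was 0.0044, with 7144 positive and 6967 negative values among the 14114 genes. An unadjusted p under 0.05 was found for 2349 genes, 1228 of them higher and 1121 lower. The counts given for the gene lists below are to be read beside these. In 105 of the 111 and 35 of the 43, the 4 siHAS2 libraries did not overlap the 4 siLuc libraries; over all genes, the share that did not overlap was 7.66%. The size of these lists rested on single animals: leaving out each library in turn gave between 4 genes (without siHAS2 mouse 3) and 230 (without siLuc mouse 3). Without siLuc mouse 1 there were 6, without siHAS2 mouse 4 there were 15, without siLuc mouse 4 there were 30 and without siHAS2 mouse 2 there were 58. With only these 2 groups in the fit, edgeR called 0 genes (smallest adjusted p = 0.122, 1844 at an unadjusted p under 0.05), so the calls also rest on the spread estimated over all 27 libraries; DESeq2 called 412 and limma-voom with quality weights 12. The p-values measure only the spread between these animals.

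**Figure D1:**
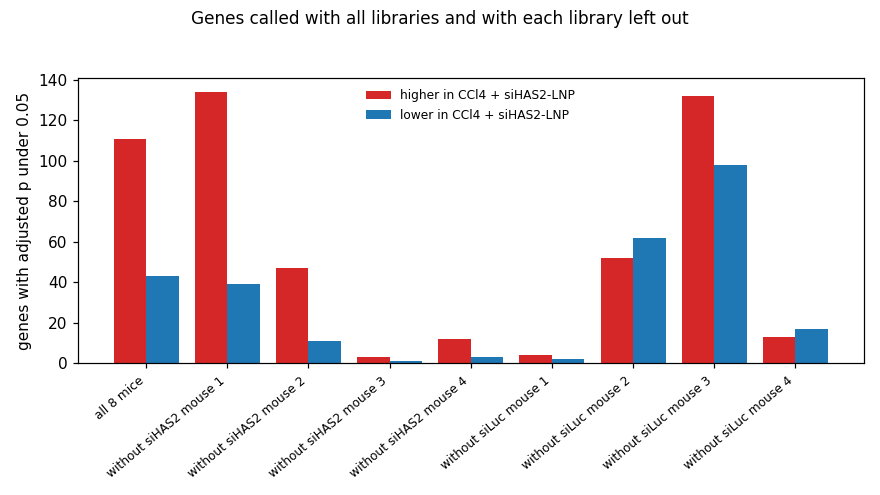
Number of genes with adjusted p under 0.05 (y axis) that were higher (red) or lower (blue) in CCl4 + siHAS2-LNP, with all 8 mice and with each mouse left out in turn (x axis). The count fell from 154 to 4 without siHAS2 mouse 3 and rose to 230 without siLuc mouse 3.

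Only 3 genes were called whichever of the 8 libraries was left out, namely Smpdl3b, AI480526 and Pdilt. Smpdl3b, a membrane-anchored sphingomyelinase-like enzyme at chr4:132460276-132484570 (GRCm39, minus strand), had 3.13, 3.85, 3.61 and 3.87 CPM in CCl4 + siHAS2-LNP mice 1 to 4 and 12.1, 8.9, 10.9 and 6.82 CPM in CCl4 + siLuc-LNP mice 1 to 4. All siHAS2 values lay under all siLuc values, and Smpdl3b fell by 1.42 on the log2 scale (SE 0.21, adjusted p = 0.00404). AI480526, an lncRNA gene at chr5:123271784-123281539 (minus strand), read 4.5, 6.44, 7.05 and 6.93 CPM in CCl4 + siHAS2-LNP mice 1 to 4 and 1.92, 2.2, 1.92 and 1.8 CPM in CCl4 + siLuc-LNP mice 1 to 4. The siLuc values were tightly grouped and all below the siHAS2 values (log2 change 1.66, SE 0.22, adjusted p = 0.000904). Its span overlaps Setd1b and Gm38102 on the opposite strand, and since the strand setting of the counting is not given in the sources used here, their reads may not be separable. Pdilt, a testis-type protein disulfide isomerase relative at chr7:119085810-119122712 (minus strand), rose from 1.06, 1.54, 0.960 and 1.18 CPM in CCl4 + siLuc-LNP mice 1 to 4 to 2.89, 2.34, 4.41 and 5.2 CPM in CCl4 + siHAS2-LNP mice 1 to 4, again with no overlap (log2 change 1.60, SE 0.25, adjusted p = 0.00594); its span overlaps Acsm5 and Gm26967. Of the 154 called genes, 114 were called in 3 or fewer of the 8 fits that left a library out.

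The 4 lists of matrix genes held 3 lower calls (Tnc, Lum and Pcolce) and 1 higher one (Col5a3). Among 23 tested proteoglycans and glycoproteins of the scar, 2 fell, 0 rose and 20 had a negative log2 change, with a median of -0.77. Tnc, the matrix glycoprotein tenascin-C that is laid down in injured tissue, had 0.508, 1.12, 0.761 and 0 CPM in CCl4 + siHAS2-LNP mice 1 to 4 and 5.67, 1.89, 1.5 and 3.77 CPM in CCl4 + siLuc-LNP mice 1 to 4. Levels were low, but each siLuc library exceeded each siHAS2 library (log2 change -2.27, SE 0.55, adjusted p = 0.0433). Lum, the fibril-binding proteoglycan lumican, had 14.7, 21.5, 17.2 and 13.2 CPM in CCl4 + siHAS2-LNP mice 1 to 4 against 58.4, 23, 20.8 and 35.3 CPM in CCl4 + siLuc-LNP mice 1 to 4. Here siLuc mouse 3 lay just under siHAS2 mouse 2, so the groups overlapped slightly, and the log2 change was -1.04 (SE 0.26, adjusted p = 0.0483). Tnc and Lum were each called in 2 of the 8 leave-one-out fits.

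Collagen chains mostly had negative values without a call in that direction. Of 19 tested chains, 17 had a negative log2 change and the median was -0.79, yet 0 were called lower; 14 of the 17 had an unadjusted p under 0.05, DESeq2 called 4 of them lower and limma-voom 0. Col1a1, the main chain of fibrillar type I collagen, read 69.5, 76.9, 49.2 and 48 CPM in CCl4 + siHAS2-LNP mice 1 to 4 and 277, 95.4, 74.9 and 162 CPM in CCl4 + siLuc-LNP mice 1 to 4. The siLuc animals themselves spanned a wide range, with mouse 1 highest and mouse 3 inside the siHAS2 range, and the change was -1.32 (SE 0.45, adjusted p = 0.135). Col3a1, the type III chain of early scar, behaved alike at 83, 158, 87.2 and 103 CPM against 419.9, 181, 121 and 273 CPM over the same mice (log2 change -1.20, SE 0.39, adjusted p = 0.121). The basement membrane chains Col4a1 and Col4a2, named after their values were seen, had no overlap between groups, with log2 changes of -0.88 (adjusted p = 0.0772) and -0.75 (adjusted p = 0.0997).

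Of the 19 listed collagen chains, 1 passed the threshold, and it was higher. Col5a3, a type V chain, stood at 14.4, 17.7, 21.9 and 23.9 CPM in CCl4 + siHAS2-LNP mice 1 to 4 and 10.3, 11.7, 8.28 and 3.88 CPM in CCl4 + siLuc-LNP mice 1 to 4. No values overlapped, siLuc mouse 4 being lowest, and the log2 change was 1.18 (SE 0.28, adjusted p = 0.04). In the libraries without siRNA its level (mean ± SD) was 15.9 ± 2.8 CPM in controls and 6.69 ± 0.785 CPM in CCl4 livers. Col11a2, a cartilage-type chain outside the collagen list, was also higher (log2 change 1.41, SE 0.35, adjusted p = 0.0467) at a level of 1.31 ± 0.164 CPM in siHAS2 livers. Of the 8 leave-one-out fits, 2 called Col5a3 and 0 called Col11a2.

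Enzymes that process collagen included 1 call. Among 19 tested genes for collagen folding, hydroxylation and crosslinking, 17 had a negative log2 change, the median was -0.63 and 1 fell. That gene was Pcolce, which speeds the trimming of procollagen, at 10.9, 10.1, 12.6 and 10.9 CPM in CCl4 + siHAS2-LNP mice 1 to 4 and 25.6, 19.5, 21.8 and 13.8 CPM in CCl4 + siLuc-LNP mice 1 to 4. The siHAS2 values were tightly grouped below every siLuc value (log2 change -0.86, SE 0.18, adjusted p = 0.0318). The collagen chaperone Serpinh1 had a log2 change of -1.01 (adjusted p = 0.0613) and the prolyl isomerase Fkbp10 one of -1.33 (adjusted p = 0.0644), both with no overlap and both named after their values were seen.

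Matrix-degrading enzymes and their inhibitors had no call in the fixed list. Of 19 tested, 16 were negative with a median of -0.87, 9 had an unadjusted p under 0.05, DESeq2 called 4 and limma-voom 0. Plat, tissue plasminogen activator, came closest (log2 change -1.67, SE 0.46, adjusted p = 0.0685), followed by the metalloproteinase inhibitor Timp1, whose values of 2.27, 1.71, 1.56 and 2.27 CPM in siHAS2 mice 1 to 4 lay under those of 4.15, 3.51, 4.56 and 3.98 CPM in siLuc mice 1 to 4 (log2 change -1.06, SE 0.29, adjusted p = 0.0728). Outside the list, the membrane-anchored metalloproteinase Mmp17 fell, with 0.391, 0.683, 0.240 and 0.133 CPM in CCl4 + siHAS2-LNP mice 1 to 4 and 1.96, 1.12, 1.26 and 1.11 CPM in CCl4 + siLuc-LNP mice 1 to 4. Its libraries did not overlap (log2 change -1.80, SE 0.38, adjusted p = 0.0318).

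**Figure D2:**
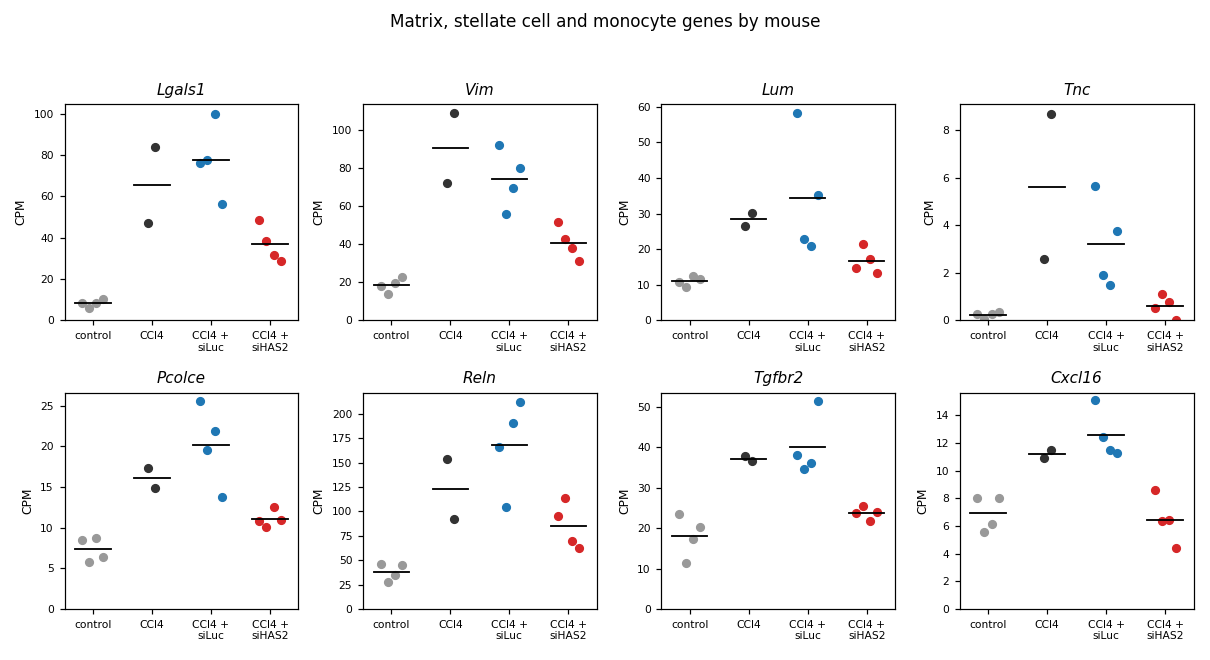
CPM on the y axis (linear, from 0) of 8 genes called lower, 1 panel a gene, for control (n = 4), CCl4 (n = 2), CCl4 + siLuc-LNP (n = 4) and CCl4 + siHAS2-LNP (n = 4); each point is a mouse and each bar a group mean. The siHAS2 points lie under the siLuc points in Lgals1, Vim, Tnc, Pcolce, Tgfbr2 and Cxcl16 and overlap them in Lum and Reln.

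Stellate cells, the vitamin A-storing pericytes of the sinusoid, become myofibroblasts in liver injury, and each of their marker lists held 1 call. Of 12 tested markers of activated stellate cells, all 12 had a negative log2 change with a median of -0.85, and 1 fell; their summed level was 115 to 219.8 CPM in siHAS2 livers and 218 to 483 CPM in siLuc livers. Vim, the intermediate filament vimentin, read 51.4, 42.7, 38 and 30.9 CPM in CCl4 + siHAS2-LNP mice 1 to 4 and 91.8, 55.8, 69.5 and 79.7 CPM in CCl4 + siLuc-LNP mice 1 to 4. There was no overlap, the closest pair being siHAS2 mouse 1 and siLuc mouse 2 (log2 change -0.86, SE 0.21, adjusted p = 0.0433). Acta2, the smooth muscle actin that defines myofibroblasts, had a larger but more variable difference, with 4.38, 1.71, 2.4 and 1.07 CPM in siHAS2 mice 1 to 4 against 12.7, 4.39, 5.82 and 11.2 CPM in siLuc mice 1 to 4. Its groups were separated only narrowly and it did not pass (log2 change -1.76, SE 0.76, adjusted p = 0.238).

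Among 14 tested markers of quiescent stellate cells 12 were negative, the median was -0.45 and 1 fell. Reln, the secreted glycoprotein reelin that stellate cells make in liver, had 95.3, 114, 69.7 and 62.1 CPM in CCl4 + siHAS2-LNP mice 1 to 4 and 166, 105, 190.4 and 213 CPM in CCl4 + siLuc-LNP mice 1 to 4. siLuc mouse 2 fell among the siHAS2 values (log2 change -0.98, SE 0.24, adjusted p = 0.0445). Of 21 tested TGF-beta and PDGF ligands, receptors and targets, 16 were negative (median -0.42, and -0.23 without both mouse 4s) and 1 fell, the TGF-beta type II receptor Tgfbr2. It stood at 23.7, 25.5, 21.8 and 24 CPM in CCl4 + siHAS2-LNP mice 1 to 4 and 38, 34.7, 36.2 and 51.6 CPM in CCl4 + siLuc-LNP mice 1 to 4. The siHAS2 livers were nearly uniform and all lower (log2 change -0.76, SE 0.18, adjusted p = 0.0424). The PDGF receptor Pdgfrb, named after its values were seen, had no overlap but did not pass (log2 change -0.63, adjusted p = 0.115).

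Several of the largest falls were in genes outside these lists. Lgals1, the sugar-binding protein galectin-1, had 48.6, 38.5, 31.8 and 28.5 CPM in CCl4 + siHAS2-LNP mice 1 to 4 and 76.2, 77.6, 100.2 and 56.1 CPM in CCl4 + siLuc-LNP mice 1 to 4. Its groups were clear of each other (log2 change -1.07, SE 0.22, adjusted p = 0.0318), and it was the only called member of 34 tested genes taken from the study's own account of what was lowered. All 34 of those were negative (median -0.47, and -0.19 without siLuc mouse 4), but most were chosen by the study on these samples, so they are not independent evidence of direction. C1qtnf6 and C1qtnf1, secreted relatives of complement C1q, changed by -1.07 (adjusted p = 0.0206) and -1.08 (adjusted p = 0.0455). Ckap4, a membrane protein of the rough endoplasmic reticulum, changed by -1.35 (adjusted p = 0.0318), the secreted Olfml3 by -1.03 (adjusted p = 0.0318) and Hid1 by -1.19 (adjusted p = 0.0371). Akr1c18, a hydroxysteroid dehydrogenase, fell by 2.19 (SE 0.43, adjusted p = 0.0258), the microvillar cadherin Cdhr2 by 1.43 (SE 0.32, adjusted p = 0.0358) and the sodium channel Scn8a by 1.18 (SE 0.29, adjusted p = 0.0435) on the log2 scale.

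The lowest log2 changes among called genes belonged to noncoding RNAs and came from 1 animal. Mir6236, Rn7sk and Gm55118, the 3 called genes with the lowest fitted log2 change, were named after their values were seen. Mir6236 read 0.0391, 0, 0 and 0.133 CPM in CCl4 + siHAS2-LNP mice 1 to 4 and 0.196, 0.116, 18 and 0 CPM in CCl4 + siLuc-LNP mice 1 to 4, and Rn7sk, a regulator of transcription elongation, read 0.430, 0.731, 1.04 and 0.400 CPM and 1.1, 4.63, 127 and 0.242 CPM in the same mice. siLuc mouse 3 is the library in which ribosomal RNA took 15.6% of counts. Leaving that library out ended the calls of all 3 genes, and the log2 difference of Gm55118 went from -4.39 to 0.35. Without that library the test called 98 genes lower, 34 of the 43 among them. Lgals1, Vim, Tnc, Lum, Pcolce, Tgfbr2 and Cxcl16 kept their calls and Reln did not (adjusted p = 0.0549). That fit gave the most calls of the 8 that left a library out. Over those 8 fits, Lgals1 was called in 5, Pcolce in 4, Vim and Cxcl16 in 3 each, and Tgfbr2 and Reln in 2 each.

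Macrophage and other leukocyte lists held 1 call. Of 17 tested monocyte markers and chemokines, 14 were negative (median -0.46) and 1 fell, Cxcl16, the membrane-bound chemokine that draws Cxcr6 lymphocytes. It had 8.56, 6.39, 6.45 and 4.4 CPM in CCl4 + siHAS2-LNP mice 1 to 4 and 15.1, 12.4, 11.5 and 11.3 CPM in CCl4 + siLuc-LNP mice 1 to 4, with all siHAS2 values below (log2 change -0.94, SE 0.21, adjusted p = 0.034). Its span overlaps Med11 and Zmynd15 on the opposite strand. Ccl2, the chief monocyte attractant, was scarce at 0.899, 0.195, 0.801 and 0.533 CPM against 2.07, 1.7, 0.900 and 4.29 CPM over the same mice. It came close to overlapping, through siHAS2 mouse 1 and siLuc mouse 3, and did not pass (log2 change -1.85, SE 0.54, adjusted p = 0.0871).

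Resident Kupffer cells gave 0 calls among 13 tested markers, although 11 were negative (median -0.70), 6 had an unadjusted p under 0.05, DESeq2 called 2 and limma-voom 0. Their summed level was 305 to 337 CPM in siHAS2 livers and 377 to 461 CPM in siLuc livers, without overlap, and 0 members were at 0 counts in all 8 libraries. Timd4, a phosphatidylserine receptor of long-lived Kupffer cells, came closest, with 1.52, 2.49, 3.21 and 2.00 CPM in siHAS2 mice 1 to 4 and 4.58, 6.21, 3.96 and 5.23 CPM in siLuc mice 1 to 4 (log2 change -1.10, SE 0.29, adjusted p = 0.0566). The colony-stimulating factor receptor Csf1r had a change of -0.76 (SE 0.22, adjusted p = 0.0836) and the complement gene C1qa one of -0.83 (SE 0.21, adjusted p = 0.0515), both with groups that did not overlap. Of 14 scar-associated macrophage genes 13 were negative (median -0.81, and -0.50 without both mouse 4s) with 0 calls, 8 unadjusted p-values under 0.05, 2 calls by DESeq2 and 0 by limma-voom. Cd63, a lysosomal tetraspanin, overlapped between groups (log2 change -1.12, adjusted p = 0.0776). Spp1, the secreted phosphoprotein osteopontin, did not overlap, and siLuc mouse 1 was far above the rest (log2 change -1.03, adjusted p = 0.0862). Spp1 is also on the list of duct epithelium markers, and whole liver does not show which cells its counts came from.

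Antigen-presenting and endothelial markers held no call. Among 12 tested dendritic cell markers 8 were negative and 4 positive, with a median of -0.99. They had 0 calls, 7 lower and 1 higher at an unadjusted p under 0.05, 6 calls by DESeq2 and 0 by limma-voom. Their summed level overlapped between groups, at 577 to 814 CPM in siHAS2 livers and 653 to 937 CPM in siLuc livers. The class II chain H2-Eb1 had 11.9, 14.6, 10.9 and 11.1 CPM in CCl4 + siHAS2-LNP mice 1 to 4 and 43.4, 37.3, 28.3 and 20.8 CPM in CCl4 + siLuc-LNP mice 1 to 4 (log2 change -1.42, SE 0.40, adjusted p = 0.0742), and the class II chain H2-Aa had a log2 change of -1.21 (adjusted p = 0.0802). Every siHAS2 library was below every siLuc library for both. Of 21 endothelial markers 20 were negative (median -0.56) and 12 did not overlap, beside 6967 negative and 1081 not overlapping of all 14114 genes. The endothelial markers had 0 calls, 8 at an unadjusted p under 0.05, 1 call by DESeq2 and 0 by limma-voom. Their sum was 147 to 212 CPM in siHAS2 livers and 248 to 292 CPM in siLuc livers. Cdh5, the cadherin of endothelial junctions, led them (log2 change -0.95, SE 0.29, adjusted p = 0.0969). T, NK, B and plasma cell markers (median -0.085), neutrophil markers (median -0.15) and duct epithelium markers (median -0.11) had medians nearer 0. Over the 20 settings tried, these medians ran from -0.31 to -0.038, from -0.57 to -0.047 and from -0.26 to -0.081. The neutrophil median was lowest without siHAS2 mouse 1. Markers of several non-parenchymal cell types thus had negative medians beside those of the matrix genes, and their part in the matrix results was not tested.

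Cell-cycle genes had negative values and no call. All 36 mitosis genes had a negative log2 change (median -0.73) with 0 calls, 16 unadjusted p-values under 0.05 and 0 calls by DESeq2 or limma-voom; 30 of 32 replication genes were negative (median -0.65) with 0 calls, 14 under 0.05, 1 call by DESeq2 and 0 by limma-voom. The summed mitosis level was 533 to 597 CPM in siHAS2 livers and 594 to 1487 CPM in siLuc livers, where mouse 4 was highest. Without that siLuc mouse 4 the median was -0.36 for mitosis and -0.16 for replication, and without both mouse 4s it was -0.37 and -0.13. Kif11, a spindle motor, read 7.7, 7.71, 5.97 and 8.4 CPM in siHAS2 mice 1 to 4 and 13.6, 6.94, 10.5 and 32 CPM in siLuc mice 1 to 4. The siHAS2 livers were close to each other while siLuc mice 2 and 4 lay far apart (log2 change -1.09, SE 0.36, adjusted p = 0.126). The replication gene Gins2 had a log2 change of -0.93 (adjusted p = 0.0862) and Mcm2, part of the replicative helicase, one of -0.98 (adjusted p = 0.127).

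Lists of hepatocyte metabolism held 1 call. Cholesterol synthesis and uptake had all 24 genes negative (median -0.79), 0 calls, 4 unadjusted p-values under 0.05 and 0 calls by DESeq2 or limma-voom. Its median moved with single animals, being -1.31 without siHAS2 mouse 4, -0.50 without siHAS2 mouse 1 and -0.50 without siLuc mouse 4, and it was -0.49 with limma-voom. Pmvk, a kinase of the mevalonate pathway, ranged over 13.9, 25.1, 17.7 and 52.4 CPM in CCl4 + siHAS2-LNP mice 1 to 4 and 55.6, 65.7, 24.2 and 62.8 CPM in CCl4 + siLuc-LNP mice 1 to 4. The groups overlapped widely (log2 change -0.96, SE 0.43, adjusted p = 0.258). Pkm, the pyruvate kinase of non-hepatocyte and proliferating cells, was the only called member of 22 glycolysis and gluconeogenesis genes, at 30.0, 28, 21.2 and 20.9 CPM in siHAS2 mice 1 to 4 against 53, 36.8, 34.9 and 59.9 CPM in siLuc mice 1 to 4. Its groups did not overlap (log2 change -0.88, SE 0.21, adjusted p = 0.0424).

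Drug-metabolising cytochromes (30 genes, median 0.26), bile acid genes (25, median 0.24) and PPAR-alpha targets (24, median 0.17) had positive medians with 0 calls each; 8, 3 and 3 of them were higher at an unadjusted p under 0.05 and 0, 1 and 1 lower, while DESeq2 called 1 cytochrome and 0 of the others and limma-voom 0. Cyp2c38 had a log2 change of 1.16 (SE 0.30, adjusted p = 0.057), with siLuc mouse 2 inside the siHAS2 range. Acadm, the medium-chain acyl-CoA dehydrogenase, was higher in every siHAS2 library without passing (log2 change 0.47, SE 0.15, adjusted p = 0.106). Cyp4a14, a fatty acid hydroxylase, had the largest log2 change of the PPAR-alpha list, 3.05, but siHAS2 mouse 1 alone reached 132 CPM (SE 1.02, adjusted p = 0.128). The medians of pericentral genes (0.059) and periportal genes (0.12) were near 0 and changed sign in 4 and 2 of the 20 settings tried. Slc1a2, a glutamate transporter of pericentral hepatocytes, had 1, 0, 0 and 1 counts in siHAS2 mice 1 to 4 and 7, 12, 4 and 3 in siLuc mice 1 to 4, too few for a fold. The fixed list of interferon-stimulated genes had 27 of 35 positive values (median 0.17) and 0 calls, with 10 higher and 2 lower at an unadjusted p under 0.05, 2 calls by DESeq2 and 0 by limma-voom. Mx2, an antiviral GTPase, was closest within the list (log2 change 0.95, SE 0.24, adjusted p = 0.055). Outside the list, Shfl (adjusted p = 0.0186) and Oas1b (log2 change 0.94, adjusted p = 0.0445) were called higher. Oas1b was named after its values were seen and was called in 0 of the 8 leave-one-out fits.

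**Figure D3:**
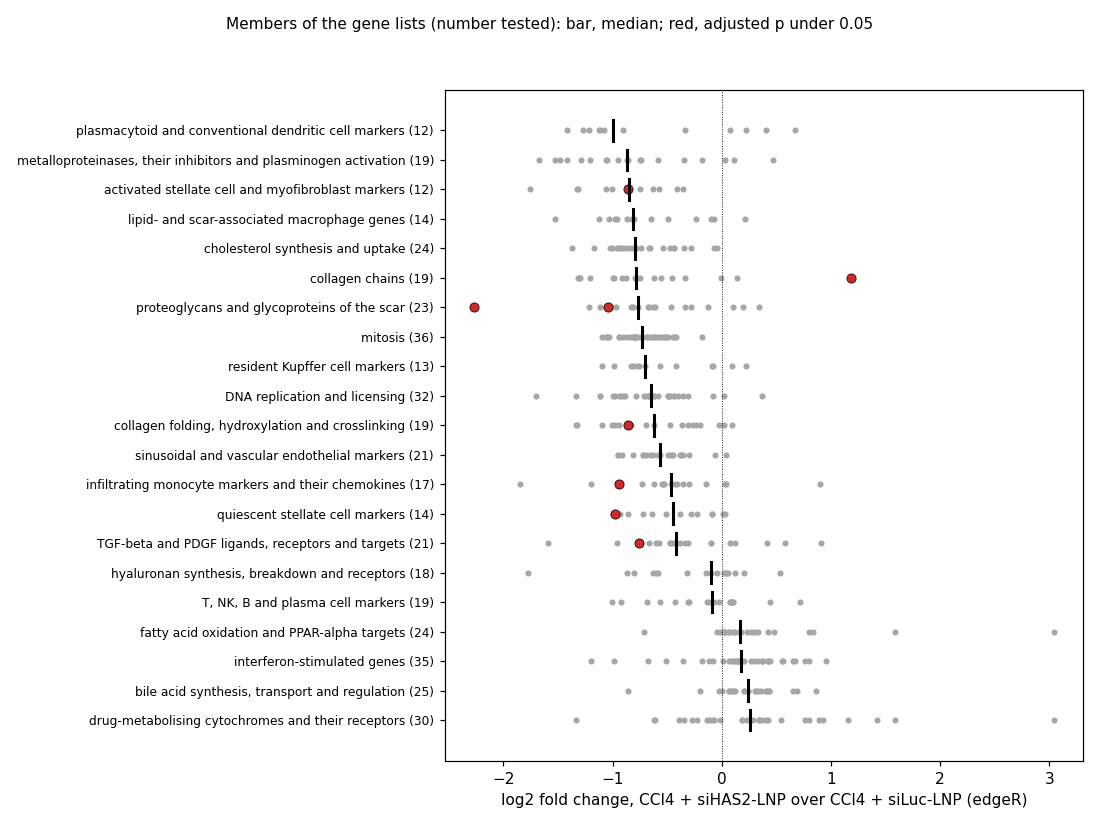
Log2 fold change of CCl4 + siHAS2-LNP over CCl4 + siLuc-LNP (x axis) for the tested members of 21 gene lists (y axis, number tested in brackets); grey points did not pass, red points had adjusted p under 0.05, and black bars are medians. The 2 lists with the lowest medians, dendritic cell markers and matrix turnover, hold no red point, and the most red points in a list is 2.

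Of the 111 genes that rose, 24 (21.6%) were lncRNAs, against 5.33% of tested genes, and 0 of the 43 lower genes were. Firre and Jpx, lncRNAs of the X chromosome with roles in X inactivation, were among them. Firre had 30.7, 28.4, 43.4 and 32.5 CPM in CCl4 + siHAS2-LNP mice 1 to 4 and 16.6, 15.4, 24.8 and 13.4 CPM in CCl4 + siLuc-LNP mice 1 to 4, with all siHAS2 values above (log2 change 0.95, SE 0.24, adjusted p = 0.0482). Jpx, which overlaps Xist and Ftx on the opposite strand, changed by 1.28 (SE 0.27, adjusted p = 0.0318) and BC048644, which overlaps Car5a on the opposite strand, by 1.48 (SE 0.31, adjusted p = 0.0318). Neat1, the lncRNA that scaffolds paraspeckles, did not pass although its groups did not overlap (log2 change 1.66, SE 0.42, adjusted p = 0.0525). Firre, Jpx and Neat1 were named after their values were seen. The lncRNA share of the whole library was highest in siHAS2 mouse 3, and leaving that library out left 3 genes higher; its part in the result was not tested. Of 108 higher genes with a position, 47 overlapped the span of another tested gene, 44 of them on the opposite strand, compared with 4993 (4541 on the opposite strand) of 14081 tested genes and 5 of the 43 lower ones. Reads of such pairs cannot be told apart where counting ignores strand.

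The protein-coding genes Rsrp1, Ddx17, Ccnl2, Pabpn1, Akap8l, Ogt and Mdm4 also rose, and were chosen after their values were seen. Rsrp1, an arginine- and serine-rich protein, stood at 259, 246, 371 and 278 CPM in CCl4 + siHAS2-LNP mice 1 to 4 and 149.6, 153, 194 and 145 CPM in CCl4 + siLuc-LNP mice 1 to 4. The gap between groups was clear, with siHAS2 mouse 3 highest (log2 change 0.85, SE 0.20, adjusted p = 0.0396). Ddx17, an RNA helicase whose span overlaps Kdelr3 on the opposite strand, had 169, 189, 250.1 and 209 CPM against 132, 129.5, 136 and 141 CPM in the same mice. The siLuc livers differed little from each other (log2 change 0.60, SE 0.13, adjusted p = 0.0318). Ccnl2, a cyclin found in splicing speckles, changed by 0.91 (adjusted p = 0.0363), the nuclear poly(A)-binding protein gene Pabpn1 by 0.92 (adjusted p = 0.034) and Akap8l by 0.96 (adjusted p = 0.0445). Ogt, the O-GlcNAc transferase, changed by 0.69 (adjusted p = 0.0445) and Mdm4, a p53 inhibitor, by 0.76 (adjusted p = 0.0401).

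Most of the largest rises were in genes with few counts. Shfl, an interferon-induced inhibitor of ribosomal frameshifting whose span overlaps Angptl6, was an exception, with 66.6, 81.1, 141 and 103 CPM in CCl4 + siHAS2-LNP mice 1 to 4 and 40.9, 45.5, 46.5 and 23.1 CPM in CCl4 + siLuc-LNP mice 1 to 4. It rose in all siHAS2 livers, most in mouse 3, and was called in 6 of the 8 leave-one-out fits (log2 change 1.33, SE 0.24, adjusted p = 0.0186). Grik5, a kainate receptor subunit whose span overlaps Zfp574, read 8.88, 5.51, 9.62 and 10.8 CPM in siHAS2 mice 1 to 4 and 3.05, 3.47, 5.28 and 0.969 CPM in siLuc mice 1 to 4. siLuc mouse 3 came nearest to the siHAS2 range without reaching it (log2 change 1.46, SE 0.31, adjusted p = 0.0318). Apoc2, the apolipoprotein that activates lipoprotein lipase, changed by 1.49 (SE 0.34, adjusted p = 0.0349). Spata33 (1.64), the axonemal dynein gene Dnai3 (1.68), Tmem278 (1.48), Phyhd1 (1.41) and the pseudogene Slc2a4rg-ps (1.39) had log2 changes in the same range, with group means of at most 6.99 ± 2.21 CPM. The span of Slc2a4rg-ps overlaps Zbtb46 on the opposite strand.

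**Figure D4:**
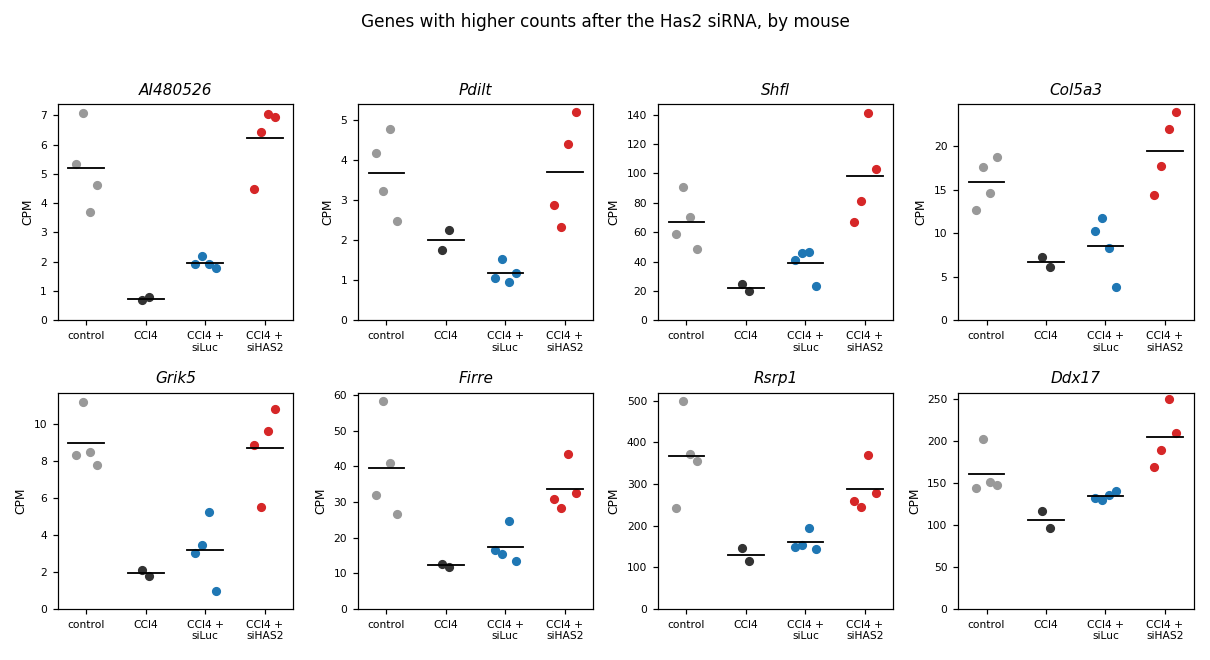
CPM on the y axis (linear, from 0) of 8 genes called higher, 1 panel a gene, for control (n = 4), CCl4 (n = 2), CCl4 + siLuc-LNP (n = 4) and CCl4 + siHAS2-LNP (n = 4); each point is a mouse and each bar a group mean. In all 8 panels the siHAS2 points lie above the siLuc points.

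The called genes were then placed on the axis of CCl4 injury, using control and CCl4 livers, which share no library with the siRNA groups. Over all tested genes, 18.0% were higher and 16.1% lower in CCl4 (n = 2) than in control (n = 4). Of the 43 genes that fell with siHAS2-LNP, 32 were higher and 0 lower in CCl4 than in control; of the 111 that rose, 70 were lower and 0 higher. The median CCl4 log2 change was 1.37 for the 43 and -0.94 for the 111, beside -0.023 over all genes. Lgals1, for instance, had 8.25 ± 1.93 CPM (mean ± SD) in controls and 65.4 ± 26 CPM in CCl4 livers, AI480526 had 5.19 ± 1.43 CPM and 0.735 ± 0.0774 CPM, and Smpdl3b 0.593 ± 0.119 CPM and 5.96 ± 0.714 CPM. For Lgals1 and Smpdl3b the siHAS2 values lay between those of control and siLuc livers, and for AI480526 they lay within the control range of 3.71 to 7.08 CPM. In Smpdl3b the siLuc values, 6.82 to 12.1 CPM, all lay above the CCl4 values of 6.47 and 5.46 CPM, and the siHAS2 values all lay below them. Without siLuc mouse 3, 74 of 98 lower genes were higher in CCl4 and 2 lower, and 90 of 132 higher genes were lower in CCl4 and 0 higher.

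**Figure D5:**
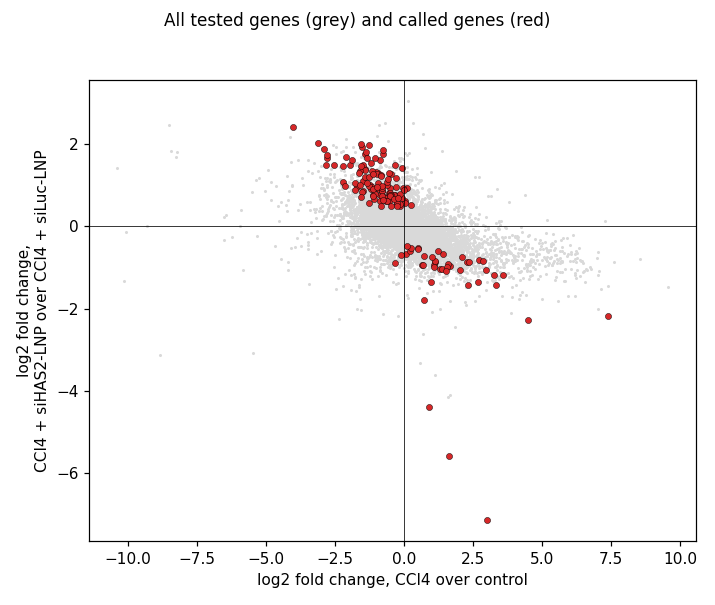
Log2 fold change of CCl4 over control (x axis) against that of CCl4 + siHAS2-LNP over CCl4 + siLuc-LNP (y axis) for all 14114 tested genes (grey) and the 154 called ones (red). Red points above 0 lie mostly to the left and red points below 0 mostly to the right; the 3 lowest red points are Mir6236, Rn7sk and Gm55118, which rest on siLuc mouse 3.

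Without CCl4 the same pair of particles (n = 3 each) differed in 6 genes, 4 higher (0.0283%) and 2 lower (0.0142%), with 1262 at an unadjusted p under 0.05. Higher were Colec12, a scavenger receptor (log2 change 1.48), Ppp1r10 (1.67), the aminotransferase Gpt2 (1.10) and Klhl42 (0.91), and lower were Nceh1, a cholesteryl ester hydrolase (-1.25), and the kinase Taok3 (-0.99). Klhl42, a substrate adaptor of a ubiquitin ligase, was the only gene called in both settings. In CCl4 livers it had 9.78, 11.6, 11.5 and 8.27 CPM in siHAS2 mice 1 to 4 and 6.69, 6.32, 6.96 and 5.85 CPM in siLuc mice 1 to 4 (log2 change 0.68, SE 0.14, adjusted p = 0.0299), and without CCl4 9.73, 11.3 and 9.86 against 6.86, 4.44 and 5.14 CPM in mice 1 to 3. It was higher with siHAS2-LNP in both, with no overlap of libraries in either. For the 43 genes lower in CCl4 livers, the median change without CCl4 was -0.21 and 14 were positive; for the 111 higher ones it was -0.035 and 48 were positive.

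When the difference between injured and uninjured liver was itself tested, edgeR called 5 genes, 3 of them positive (0.0213%) and 2 negative (0.0142%), with 1612 at an unadjusted p under 0.05. These calls were not stable: limma-voom called 0 (1657 at an unadjusted p under 0.05), and edgeR called 0 without CCl4 + siHAS2-LNP mouse 2, 3 or 4, without CCl4 + siLuc-LNP mouse 1, without siHAS2-LNP mouse 2 or 3 and without siLuc-LNP mouse 1 or 3 (1135 to 1841 at an unadjusted p under 0.05), 1 without CCl4 + siLuc-LNP mouse 4 or siHAS2-LNP mouse 1, and 25 and 26 without CCl4 + siHAS2-LNP mouse 1 and CCl4 + siLuc-LNP mouse 3. They were AI480526 (difference in log2 change 1.83, adjusted p = 0.0422), the lncRNA Gm15635 (2.97, 0.0482), the vesicular glutamate transporter Slc17a8 (2.32, 0.0422), Smpdl3b (-2.16, 0.0422) and Cyb561, an electron-transfer membrane protein (-2.18, 0.0482). Without CCl4, the log2 change was 0.74 for Smpdl3b and -0.17 for AI480526, neither past the threshold. It was 1.66 for Cyb561 (adjusted p = 0.0514), -1.33 for Slc17a8 (0.0929) and -1.33 for Gm15635 (0.281). In CCl4 livers Cyb561 changed by -0.52 (adjusted p = 0.295) and Slc17a8 by 0.995 (0.0711), neither called. Gm15635, whose span overlaps Slco2b1 on the opposite strand, changed there by 1.64 (0.0318). For Cyb561 and Slc17a8 the larger change was thus the one in uninjured liver. The change of the rest of the 154 genes was not shown to differ with CCl4 at the adjusted threshold. An unadjusted p under 0.05 for this difference was found in edgeR for 95 of the 111 higher genes and 26 of the 43 lower ones, beside 1612 of all 14114. Those genes were picked by their change in CCl4 livers, which is part of the difference tested. Their counts are therefore not independent evidence of a difference.

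Finally, matches to the siRNA seed were counted, as a description. The complement of guide bases 2 to 8, TTTGCAA on the messenger strand, occurred in the longest annotated 3′ untranslated region of 9 of 38 lower genes that have one (23.7%), of 12 of 74 higher genes (16.2%) and of 2246 of 12671 tested genes (17.7%). Lum, Tgfbr2, Scn8a and Rac2 were among the lower genes with a match, and Shfl and Spata33 among the higher ones. Over all tested genes the median log2 change was -0.0144 with a match and -0.0092 without.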

How the data were processed

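Paired reads from whole mouse liver were trimmed by the authors with Trimmomatic 0.39, aligned with HISAT2 to GRCm39 and counted per gene with featureCounts without multi-mapping reads. The study's methods name a directional library kit, which keeps the strand of the reads. The raw counts were deposited, and the strand setting of the counting is not given in the sources used here. The tools are as named in the submitters' processing notes and the study's methods. Of 55414 gene identifiers, 54749 were matched to GENCODE vM39 for type and position, and 0 columns of samples outside the series were present. All 27 libraries in 8 groups were fitted together with edgeR 4.0.16 (quasi-likelihood test, TMM normalisation, R 4.3.3) over genes with a mean count of at least 10, with Benjamini-Hochberg adjustment at 0.05. DESeq2 1.42.0, limma 3.58.1 (voom), other filters, other sets of samples and each library left out served as alternatives. CPM are counts divided by the TMM-scaled library total. Each SE is the absolute log2 change divided by the square root of the quasi-likelihood F statistic. It was thus derived from the test and adds no information to the p-value. Total counts of the 8 libraries ran from 7044386 to 25641808, so precision differed between animals.

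The members and gene lists were chosen with earlier results of these data known. Genes were named by rule: a fixed set (Acta2, Ccl2, Cd44, Cemip, Col1a1, Col3a1, the Has genes, Hmmr, Hrg, Hyal1 and Hyal2), the 12 largest changes in each direction among called genes whose libraries did not overlap, leaving out predicted genes, and the called or lowest-p members of each list. Others are said to have been chosen after their values were seen. Sequences of the siRNA come from the study's supplement.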

Additional observations from a re-analysis of the deposited data

Results flagged for a closer look

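Among 222 groups of 4 libraries examined for a single distant animal, 18 (8.11%) had one by Dixon's criterion, where chance gives about 1 in 20. CCl4 + siHAS2-LNP mouse 1 was distant in Cyp4a14 (132 CPM, the next animal 28.3 CPM), Hrg (1261 CPM), Hyal2 (51.8 CPM), Jun (14.7 CPM), Mcm2 (14.4 CPM) and Tmem278 (1.09 CPM, the lowest). CCl4 + siHAS2-LNP mouse 2 was distant in Cd4 (0.780 CPM). CCl4 + siHAS2-LNP mouse 4, the shallowest library, was distant in C1qtnf1 (1.73 CPM), Cemip (0.267 CPM), Has1 (1.07 CPM, against at most 0.0391 CPM in the other 3), Il1rn (2.67 CPM) and Scn8a (5.47 CPM). In the siLuc group, mouse 1 was distant in Spp1 (676 CPM), mouse 3 in mt-Atp8 (2.16 CPM) and mouse 4 in Has2, where 1 count gave 0.0346 CPM.

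At the level of whole libraries, mitochondrial messenger RNAs took 7.48% of counts in CCl4 + siHAS2-LNP mouse 3. Ribosomal RNA took 15.6% and small RNAs 0.0952% in CCl4 + siLuc-LNP mouse 3.

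In 5 genes the siHAS2 against siLuc change differed between CCl4 and no CCl4 by the interaction test in edgeR. The difference in log2 change was -2.16 for Smpdl3b, -2.18 for Cyb561, 1.83 for AI480526, 2.97 for Gm15635 and 2.32 for Slc17a8.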

How the results depend on the processing

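The number of genes called in CCl4 livers, 154 in the fit described, depended on most choices. It was 412 with DESeq2 (152 of the 154 among them), 656 with no low-count filter, 68 when an absolute log2 change of at least 1 was also asked for, 2349 at an unadjusted p under 0.05, 12 with limma-voom, 2 with only the 4 groups given CCl4 in the fit, 0 with only the compared groups, and 2 without mouse 4 of both groups. Leaving out 1 library at a time gave 4 to 230. Leaving out both mouse 3s, an alternative chosen after seeing the data, gave 0 calls in edgeR (2199 at an unadjusted p under 0.05); leaving out ribosomal, small and mitochondrial RNA genes, also chosen after seeing the data, gave 150. The cause of these shifts was not tested. Without CCl4, the 6 calls became 77 with DESeq2, 171 with limma-voom, 158 with no filter, 1262 at an unadjusted p and 1 to 9 with 1 library left out. For the difference between settings, the 5 calls became 67 with DESeq2, 0 with limma-voom (1657 at an unadjusted p under 0.05), 304 with no filter, 1612 at an unadjusted p and 0 to 26 with 1 library left out.

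With the replicate number as a block, 12 genes were called in CCl4 livers, 8 without CCl4 and 2 for the difference; with the block and only the compared groups, 0 were (1507 at an unadjusted p under 0.05). The deviations of same-numbered mice correlated at -0.219, -0.132, -0.0010 and -0.0146. Over all pairs of a siHAS2 and a siLuc mouse, the lowest correlation was -0.382 (siHAS2 mouse 2, siLuc mouse 3). The highest was 0.429 (siHAS2 mouse 1, siLuc mouse 3). It was followed by 0.381 (siHAS2 mouse 2, siLuc mouse 4), 0.286 (siHAS2 mouse 3, siLuc mouse 1) and 0.285 (siHAS2 mouse 4, siLuc mouse 2). Each mouse thus had a different partner in its highest correlation, and the block by replicate number does not follow these pairs. Whether any of these animals were handled together was not tested.

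Among the values of named genes in the other settings, 21 had the opposite sign. With the sign kept, 615 lost a call, 114 gained one and 2001 stayed the same. The settings share most of their libraries, so a kept sign is not independent evidence of direction. Hrg, near 0, was -0.012 with DESeq2 and with its size factors in edgeR, -0.084 with limma-voom, -0.0058 with no filter, -0.017 with filterByExpr, -0.0093 with only the compared groups and with only the 4 groups given CCl4, -0.0041 with the replicate block, -0.13 without both mouse 4s and -0.18 to 0.16 with 1 library left out. Without both mouse 3s, Hyal2 was 0.088, Rn18s-rs5 0.47, Lars2 0.91 and Gm55118 0.33. With 1 library left out, Hyal2 ran from -0.23 to 0.039, Upk3b from -0.73 to 0.12, Rn18s-rs5 from -4.68 to 0.57, Lars2 from -4.26 to 0.88 and Gm55118 from -4.94 to 0.35; Rn18s-rs5, Lars2 and Gm55118 turned without siLuc mouse 3. With 7044386 counts in siHAS2 mouse 4, 3 counts correspond to 0.426 CPM there before TMM scaling, which limits low genes.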

Other observations

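Lists outside the sections above held 0 calls each in edgeR, glycolysis and gluconeogenesis apart. Endoplasmic reticulum chaperones had 20 of 22 negative log2 changes (median -0.33, and -0.16 without siLuc mouse 4, 6 at an unadjusted p under 0.05, 0 calls by DESeq2 or limma-voom), semaphorins, plexins and neuropilins had 21 of 24 (median -0.31), stress-response and p53 targets 20 of 23 (median -0.24), immediate early genes 15 of 18 (median -0.28) and fetal liver genes and YAP targets 13 of 16 (median -0.28). Fatty acid and triglyceride synthesis had a median of -0.24 over 26 genes, acute-phase proteins one of -0.11 over 24 and glycolysis and gluconeogenesis, with its single call, one of -0.092 over 22. Medians were positive for core clock genes (0.24, 19 genes), the growth hormone and IGF axis (0.16, 18 genes) and conjugating enzymes (0.14, 30 genes, negative in 1 of the 20 settings tried). Of 19 genes that the study names as raised, 18 had positive values (median 0.32, and 0.097 without siLuc mouse 4 and 0.17 without siLuc mouse 1), but they were chosen on these samples and are not independent evidence. Coagulation and complement genes (0.015, 35 genes), mitochondrially encoded messenger RNAs (0.024, 13 genes) and markers of tissues that dissection could carry over (-0.19, 8 genes) had medians that changed sign in 14, 13 and 1 of the 20 settings tried.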
